A study of Mus musculus with 7 samples.

Results

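The MCM helicase family comprises the 9 genes *Mcm2* to *Mcm10*, which were taken by name from the 21928 genes of bulk RNA-seq libraries of preleptotene-enriched mouse testes. All 9 were matched by Ensembl identifier and all 9 passed the filter on low abundance. The replicative helicase genes *Mcm2* to *Mcm7* make up 6 of them, and *Mcm8*, *Mcm9* and *Mcm10* the other 3.

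The libraries came from 4 wild-type (WT) and 3 *Meioc*-null (Meioc KO) male pups of strain C57BL/6N, with 1 library per pup, each from 1.5 testes. The null pups carried the allele Meioc tm1.1Dpc, a knockout that is not confined to a cell type by a Cre driver. Pups of both genotypes received WIN 18,446, which blocks the synthesis of retinoic acid, at 0.1 mg/g body weight on each day from P2 to P8. They then received retinoic acid at 0.0125 mg/g on P9, and testes were taken 6.75 days after that injection. By then the synchronized spermatogonia had advanced toward the preleptotene stage, in which germ cells leave mitotic cycling and enter the S phase that precedes meiosis. The comparison asks which transcripts depend on MEIOC, a germ cell protein required for meiotic prophase, at this step.

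In G1, the origin recognition complex, CDC6 and CDT1 load a ring of MCM2, MCM3, MCM4, MCM5, MCM6 and MCM7 subunits around DNA. In S phase, CDC7 kinase with DBF4 marks the loaded ring, and CDC45 and the GINS complex join it to form the CMG helicase that unwinds DNA at the fork. MCM10 shares the name but not the ring structure and helps the CMG helicase to start moving. MCM8 and MCM9 form a separate complex that acts in homologous recombination, and in mice both genes are needed for normal germ cell development.

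On GRCm38, *Mcm2* lies on chr6:88883474-88898780, *Mcm3* on chr1:20802968-20820312, *Mcm4* on chr16:15623897-15637400, *Mcm6* on chr1:128331590-128359664, *Mcm7* on chr5:138164583-138172422, *Mcm9* on chr10:53536315-53630439 and *Mcm10* on chr2:4989714-5012791, all on the minus strand. *Mcm5* on chr8:75109569-75128439 and *Mcm8* on chr2:132816141-132844197 lie on the plus strand. All 9 are annotated as protein-coding.

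The promoters of 8 of the 9 genes were found in the RefSeq promoter table for GRCm38.p6, each covering 250 bases before and 50 bases after the annotated start. *Mcm4* was not matched. MCM genes are textbook targets of the E2F transcription factors, which control entry into S phase. The promoters were therefore searched on both strands for the E2F words TTTCCCGC, TTTCGCGC, TTTGCCGC and TTTGGCGC, for GCGGGAA, a core word of E2F6 sites that overlaps TTTCCCGC on the other strand, for the STRA8 word CNCCTCAG, and for CCAAT. An E2F word was found in *Mcm3*, *Mcm5*, *Mcm6*, *Mcm7* and *Mcm8*, which is 5 of 8 genes and 5 of 9 promoters, since a second *Mcm7* promoter held none, and in 2.26% of all 32851 promoters of the same length in the table. GCGGGAA was found in *Mcm3* and *Mcm7*, against 4.6% of all promoters. CNCCTCAG was found in *Mcm6* and *Mcm9*, against 7.94%. CCAAT was found in all 8 genes and in 37.4% of all promoters. A match is a string of letters and was not tested for binding.

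Promoters of 4 genes are shown, each 5′ to 3′ in the direction of the gene, with matches to the E2F, GCGGGAA and STRA8 words in capitals. *Mcm5* and *Mcm8* are the genes called below, *Mcm7* holds E2F words without being called, and *Mcm2* holds none. The windows are chr8:75109259-75109558 on the plus strand for *Mcm5*, chr2:132815891-132816190 on the plus strand for *Mcm8*, chr5:138171834-138172133 on the minus strand for *Mcm7*, and chr6:88898731-88899030 on the minus strand for *Mcm2*.
Mcm5: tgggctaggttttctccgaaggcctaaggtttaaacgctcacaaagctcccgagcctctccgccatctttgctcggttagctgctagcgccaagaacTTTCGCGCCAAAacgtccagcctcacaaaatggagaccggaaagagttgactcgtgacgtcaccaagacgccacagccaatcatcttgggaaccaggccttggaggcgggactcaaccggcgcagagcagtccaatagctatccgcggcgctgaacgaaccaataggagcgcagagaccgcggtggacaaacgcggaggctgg
Mcm8: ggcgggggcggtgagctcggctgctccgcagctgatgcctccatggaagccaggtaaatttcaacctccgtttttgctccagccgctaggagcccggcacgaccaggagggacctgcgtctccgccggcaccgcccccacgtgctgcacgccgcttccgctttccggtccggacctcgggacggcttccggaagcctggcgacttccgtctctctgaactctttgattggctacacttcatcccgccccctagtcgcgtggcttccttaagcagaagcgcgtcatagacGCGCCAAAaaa
Mcm7: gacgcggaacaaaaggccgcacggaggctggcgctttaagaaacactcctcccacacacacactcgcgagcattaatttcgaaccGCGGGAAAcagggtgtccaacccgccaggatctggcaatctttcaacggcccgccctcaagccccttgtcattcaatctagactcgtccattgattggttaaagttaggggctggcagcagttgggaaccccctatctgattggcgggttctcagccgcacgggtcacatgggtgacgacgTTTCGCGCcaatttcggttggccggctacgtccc
Mcm2: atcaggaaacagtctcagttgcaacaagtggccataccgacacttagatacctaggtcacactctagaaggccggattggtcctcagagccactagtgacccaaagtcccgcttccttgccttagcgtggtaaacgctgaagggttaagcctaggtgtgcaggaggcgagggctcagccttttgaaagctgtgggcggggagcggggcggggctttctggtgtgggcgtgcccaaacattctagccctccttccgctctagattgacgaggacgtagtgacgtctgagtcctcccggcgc
In *Mcm5*, 2 E2F words on opposite strands overlapped, beginning at positions -153 and -149 from the start. In *Mcm8*, the single E2F word began after the start, at position 40. In *Mcm7*, E2F words began at positions -165 and 17. So E2F words were present in both called genes and also in 3 genes that were not called.

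The libraries held 12537852 to 20552702 estimated counts. Values are given as CPM, counts relative to library size after TMM scaling, which corrects that size for composition. A log2 fold change is wild type over *Meioc*-null, with its standard error (SE), and a gene was called at an adjusted p under 0.05 in the quasi-likelihood test of edgeR, adjusted by the Benjamini-Hochberg method over all 13630 genes tested. *Meioc* itself was counted at 466, 658, 662 and 718 CPM in wild-type replicates 1 to 4 and at 399, 299 and 412 CPM in null replicates 1 to 3. Its transcripts were lower in every null library but still present, with a log2 fold change of 0.76 (SE 0.16, adjusted p = 0.021 by edgeR). Which exons the allele lacks is not given in the sources used here. Wild-type replicate 1 stood apart. For each pair of libraries, the squared difference was divided by the counting variance, and the median was taken over the genes tested. This ratio was 2.37 between wild-type replicate 1 and null replicate 1, close to the 2.34 between wild-type replicates 1 and 2. Between wild-type replicate 1 and wild-type replicates 3 and 4 it was larger, at 3.21 and 3.58. Among wild-type replicates 2 to 4 it was 1.67 to 1.99.

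The libraries were made from whole testes, so MCM transcripts of spermatogonia, spermatocytes and dividing somatic cells were counted together. The summed CPM of 6 germ cell markers was 1903 to 2078 in wild type and 1453 to 1533 in the null, with no overlap, and 3 of the 6 (*Dazl*, *Mael* and *Rnf17*) were called higher in wild type. *Dazl* alone held 1015 to 1174 CPM in wild type and 640 to 785 CPM in the null. The others were not called, with log2 fold changes of 0.24 for *Ddx4*, 0.09 for *Tdrd9* and -0.24 for *Tdrd1*, which went the other way. The summed CPM of the preleptotene markers *Stra8*, *Meiosin* (*Gm4969*) and *Rec8* was 326 to 729 in wild type and 136 to 252 in the null, and only *Meiosin* of the 3 was called. *Meiosin* was also the only one to separate the genotypes, at 143 to 265 CPM in wild type and 24.8 to 33.8 CPM in the null. *Stra8* overlapped at 126 to 409 and 77.1 to 157 CPM, and *Rec8* at 40.2 to 69.5 and 34.3 to 60.9 CPM. Of 7 markers of undifferentiated spermatogonia, *Nanos2* and *Lhx1* fell below the filter, and the summed CPM was 122 to 145 in wild type and 160 to 260 in the null. That separation rested on *Zbtb16*, the only one called by edgeR (log2 fold change -0.86, adjusted p = 0.021). Without it the sums overlapped, at 62.2 to 77.0 and 75.7 to 99.0 CPM. DESeq2 called 3 of these markers lower in wild type, where it called 875 of all 13630 genes tested lower. *Ret* (-0.54) and *Etv5* (-0.47) went the same way as *Zbtb16*, with edgeR adjusted p-values of 0.062 and 0.084. *Gfra1* was at -0.14, and *Id4* went the other way at 0.15. The summed CPM of differentiating spermatogonia markers was 364 to 450.5 in wild type and 322 to 348 in the null, with 1 of 5 called. That gene was *Kit* (log2 fold change 0.55, adjusted p = 0.018 by edgeR), also the only one of the 5 whose genotypes did not overlap. *Ccnd2* went the other way, at -0.17 (adjusted p = 0.33 by edgeR). The summed levels of the Sertoli, Leydig, peritubular myoid, endothelial and macrophage lists overlapped between genotypes, as did those of late germ cells, of which 5 of 6 markers were below the filter. Of the somatic markers, *Gata4* of Sertoli cells (log2 fold change -0.33, adjusted p = 0.025) and *Des* of peritubular myoid cells (-0.37, adjusted p = 0.049) were called lower in wild type by edgeR. No other somatic marker was called by edgeR. DESeq2 called 2 of the 6 Leydig markers lower, and 1 each of the Sertoli and peritubular myoid lists. For the Leydig list, 3 of the 6 edgeR log2 fold changes were positive. *Hsd3b1* was at -0.47 (adjusted p = 0.054 by edgeR) and *Dlk1* at -0.45 (adjusted p = 0.074 by edgeR). The part of these shifts in the MCM values was not tested, and in bulk samples fewer cells of a type and less RNA per cell cannot be told apart.

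Of the 9 MCM genes, 2 were called higher in wild type, *Mcm5* of the replicative ring and *Mcm8* of the recombination complex, where 7.77% of all genes tested were called higher. None was called lower by edgeR, against 3.33% of all genes, and at an unadjusted p under 0.05 the counts were 5 higher and 0 lower, where 17.4% and 12.9% of all genes tested lay at that p in each direction. DESeq2 on the same genes called 4 higher and 0 lower, adding *Mcm3* and *Mcm4*. Its background was 10.7% called higher, and 875 of the 13630 genes tested called lower. The median log2 fold change of the 9 genes was 0.27, beside -0.01 for all genes tested. All 7 libraries held at least 418 counts of every member, and at most 4867.

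*Mcm5* was the most changed member. Its wild-type replicates 1 to 4 held 169, 248, 242 and 245 CPM, and its null replicates 1 to 3 held 136, 98.9 and 115 CPM. The groups did not overlap, although wild-type replicate 1 lay nearer to null replicate 1 than to any other wild-type library. Wild type averaged 226 ± 38.1 CPM (SD, n = 4), the null averaged 116 ± 18.4 CPM (SD, n = 3), and the log2 fold change was 0.96 (SE 0.15, adjusted p = 0.011 by edgeR), a fold of 1.94 with a 95% interval of 1.53 to 2.46. Without wild-type replicate 1 the log2 fold change was 1.07 (adjusted p = 0.001 by edgeR). Without null replicate 3 it was 0.95 and no longer called (adjusted p = 0.056 by edgeR).

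*Mcm8*, the partner of *Mcm9* in recombination, was the second gene called. It was counted at 54.3, 69.0, 64.9 and 70.8 CPM in wild-type replicates 1 to 4 and at 41.2, 37.3 and 42.2 CPM in null replicates 1 to 3. Every wild-type library lay above every null library, and the null libraries lay close together. The log2 fold change was 0.69 (SE 0.10, adjusted p = 0.010 by edgeR), a fold of 1.61 with a 95% interval of 1.37 to 1.89. It was called whichever library was left out, with log2 fold changes from 0.63 to 0.76. On log2(TPM + 1) with limma the value was lower, at 0.43 (adjusted p = 0.024), where the median of all genes also lay lower, at -0.23.

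**Figure D1:**
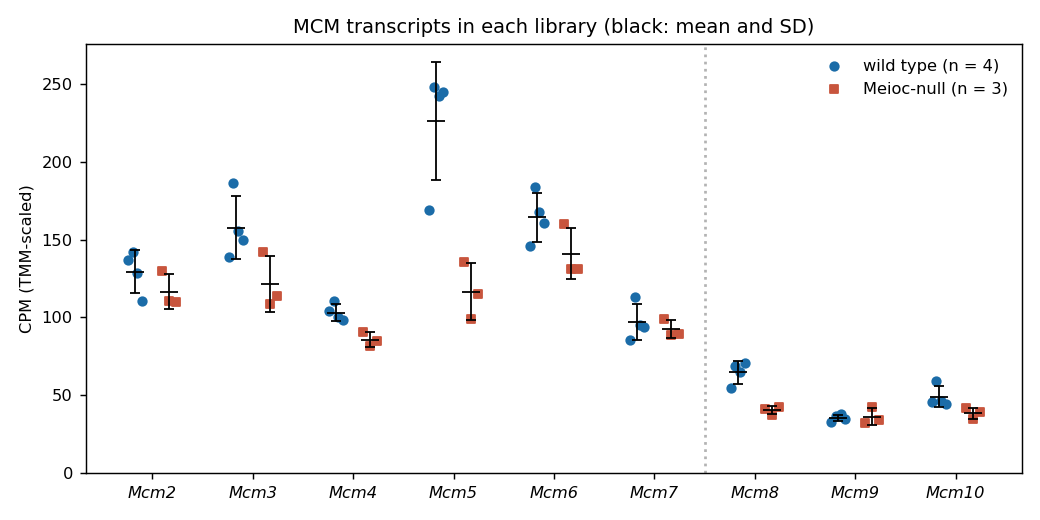
TMM-scaled CPM (y axis, linear from 0) of each MCM gene (x axis) in each wild-type library (circles) and each *Meioc*-null library (squares), with the mean and SD of each group in black and a dotted line between the replicative genes and the other 3. *Mcm5* and *Mcm8* were called, and *Mcm4* and *Mcm10* also show no overlap between the genotypes.

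*Mcm4* and *Mcm10* did not pass the test, although their genotypes did not overlap either. *Mcm4*, a core ring subunit, was counted at 104, 110, 100.0 and 98.2 CPM in wild-type replicates 1 to 4 and at 90.7, 81.7 and 84.7 CPM in null replicates 1 to 3. This was a small difference between tight groups, with a log2 fold change of 0.27 (SE 0.08, adjusted p = 0.055 by edgeR) and a 95% interval of 0.09 to 0.44. On log2(TPM + 1) with limma its value was 0.00 (adjusted p = 0.97). *Mcm10*, the activator of the CMG helicase, was counted at 45.8, 58.9, 46.4 and 44.6 CPM in wild-type replicates 1 to 4 and at 41.6, 34.7 and 39.2 CPM in null replicates 1 to 3. Its log2 fold change was 0.34 (SE 0.12, adjusted p = 0.085 by edgeR), with a 95% interval of 0.08 to 0.61, and on log2(TPM + 1) it was 0.10. In total 4 of the 9 members had every wild-type library above every null library, against 15.4% of all genes tested. In TPM the genotypes stayed apart for *Mcm5* and *Mcm8* and overlapped for the other members, *Mcm4* and *Mcm10* among them. The share of all genes tested without overlap was counted in CPM only, so the TPM result has no background beside it.

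*Mcm3*, the ring subunit beside MCM5, was counted at 139, 186, 156 and 150 CPM in wild-type replicates 1 to 4 and at 142, 108 and 114 CPM in null replicates 1 to 3. Only null replicate 1 reached the wild-type range. The log2 fold change was 0.38 (SE 0.13, adjusted p = 0.079 by edgeR), with a 95% interval of 0.10 to 0.66, and on log2(TPM + 1) it was 0.13. *Mcm3* and *Mcm4* depended on that library and on the tool: without null replicate 1 edgeR called both, at log2 fold changes of 0.51 (adjusted p = 0.032) and 0.31 (adjusted p = 0.044), and with all libraries DESeq2 called both (adjusted p = 0.041 and 0.028).

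*Mcm2*, *Mcm6* and *Mcm7* of the ring overlapped between the genotypes. *Mcm2* was counted at 137, 142, 128 and 111 CPM in wild-type replicates 1 to 4 and at 130, 110 and 110 CPM in null replicates 1 to 3. *Mcm6* was counted at 146, 184, 168 and 161 CPM in wild type and at 160, 131 and 131 CPM in the null, in the same order. *Mcm7* was counted at 85.7, 113, 95.4 and 93.8 CPM in wild type and at 99.0, 89.0 and 89.2 CPM in the null, where its wild-type replicate 1 was the lowest library of all. Their log2 fold changes were 0.15 (SE 0.10), 0.22 (SE 0.10) and 0.07 (SE 0.10), with edgeR adjusted p-values of 0.36, 0.18 and 0.67. The 95% intervals were -0.08 to 0.39, -0.01 to 0.46 and -0.16 to 0.30, so for these 3 genes a log2 difference larger than 0.46 lies outside the interval. Their signs depended on the unit: on log2(TPM + 1) the values were -0.10, -0.03 and -0.23, and relative to the median of all genes on that scale they were 0.12, 0.20 and 0.00.

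*Mcm9* was the member with the smallest difference between genotypes in CPM. It was counted at 32.9, 36.3, 37.7 and 34.4 CPM in wild-type replicates 1 to 4 and at 32.0, 42.3 and 34.0 CPM in null replicates 1 to 3. The highest and the lowest library of all were both null. The log2 fold change was -0.03 (SE 0.11, adjusted p = 0.88 by edgeR), with a 95% interval of -0.27 to 0.22. On log2(TPM + 1) with limma it was -0.29 (adjusted p = 0.17), or -0.06 relative to the median of all genes. Its sign turned without wild-type replicate 1 (0.00) and without null replicate 2 (0.10).

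**Figure D2:**
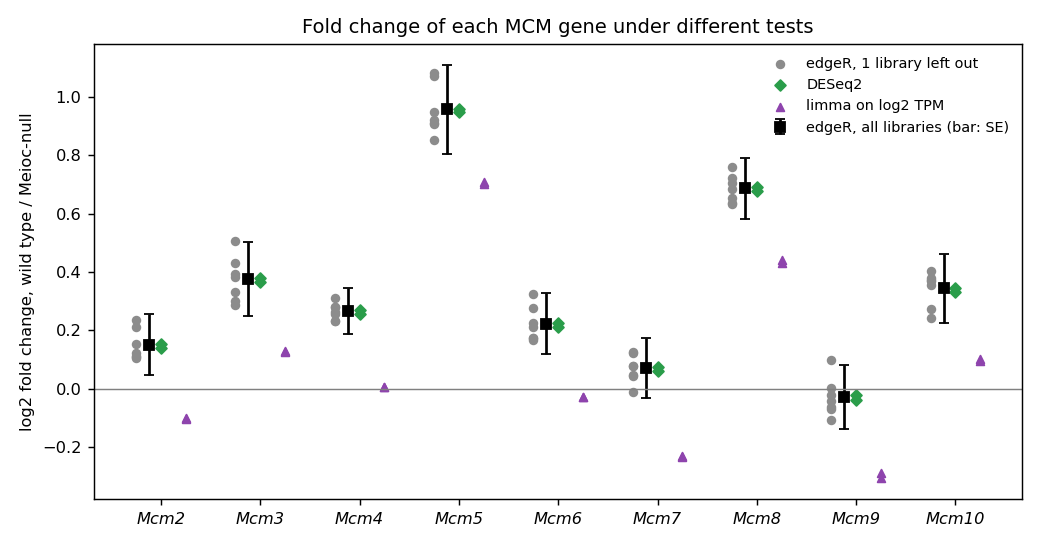
Log2 fold change of wild type over *Meioc*-null (y axis) for each MCM gene (x axis) from edgeR with all libraries (black squares, bar: SE), from edgeR with 1 library left out (grey circles), from DESeq2 (green diamonds, on 2 sets of genes) and from limma on log2 TPM (purple triangles, 2 pseudocounts). *Mcm3*, *Mcm4*, *Mcm5*, *Mcm8* and *Mcm10* lie above 0 throughout, and every limma value lies below the edgeR value of the same gene.

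TPM is corrected for transcript length, so it allows levels of different genes to be compared. In wild type the order of mean TPM was *Mcm5* (103 ± 11.9, SD, n = 4), *Mcm6* (94.6), *Mcm3* (71.9), *Mcm7* (57.2), *Mcm4* (52.4), *Mcm2* (47.8), *Mcm8* (37.2), *Mcm10* (20.2) and *Mcm9* (13.3). The ranges of *Mcm5* and *Mcm6* overlapped, as did those of *Mcm7* and *Mcm4* and of *Mcm4* and *Mcm2*, and the other neighbours in the order were separate. In the null the order of mean TPM was *Mcm6* (96.6 ± 10.3, SD, n = 3), *Mcm7* (67.2), *Mcm3* (66.0), *Mcm5* (62.6), *Mcm4* (52.2), *Mcm2* (51.2), *Mcm8* (27.3), *Mcm10* (18.8) and *Mcm9* (16.7). There *Mcm7*, *Mcm3* and *Mcm5* overlapped as neighbours, as did *Mcm4* with *Mcm2* and *Mcm10* with *Mcm9*. In both genotypes every ring subunit thus lay above *Mcm8*, *Mcm9* and *Mcm10*. *Mcm5* stood at rank 1 in the wild-type order and at rank 4 in the null order.

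The 6 ring subunits assemble in equal numbers, so their transcripts were also set against each other within each library, where scaling between libraries cancels. The TPM of *Mcm5* divided by the mean of the other 5 was 1.28, 1.54, 1.73 and 1.81 in wild-type replicates 1 to 4 and 0.995, 0.853 and 0.973 in null replicates 1 to 3. *Mcm5* was therefore above the mean of its partners in every wild-type library and below it in every null library. It held 20.4% to 26.5% of the summed TPM of *Mcm2* to *Mcm7* in wild type and 14.6% to 16.6% in the null. *Mcm6* and *Mcm7* showed the opposite order in the same ratio, without overlap. *Mcm6* lay at 1.41 to 1.44 in wild type and at 1.58 to 1.64 in the null, and *Mcm7* at 0.736 to 0.818 and at 0.963 to 1.09. Both are divided by a mean that includes *Mcm5*, so a higher *Mcm5* in wild type lowers both ratios there. In TPM itself both genes overlapped between genotypes. *Mcm6* lay at 90.9 to 102 in wild type and 85.6 to 106 in the null, and *Mcm7* at 54.2 to 64.1 and 60.5 to 71.7. The ratios of *Mcm2*, *Mcm3* and *Mcm4* overlapped. The 6 ratios are not independent, since each gene enters the mean of the others, and they are given as a description without a test. The summed TPM of the 6 genes overlapped, at 413 to 456 in wild type and 357 to 430 in the null.

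Outside the ring, the TPM ratio of *Mcm8* to *Mcm9*, whose proteins act together, was 2.32, 3.02, 2.70 and 3.22 in wild-type replicates 1 to 4 and 1.95, 1.29 and 1.81 in null replicates 1 to 3. *Mcm8* exceeded *Mcm9* in every library, by less in each null library than in any wild-type library. The TPM of *Mcm8* over the mean of *Mcm2* to *Mcm7* was 0.491 to 0.581 in wild type and 0.378 to 0.462 in the null. That of *Mcm10* overlapped, at 0.263 to 0.309 and 0.275 to 0.303, and so did that of *Mcm9*, at 0.169 to 0.212 and 0.193 to 0.318.

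**Figure D3:**
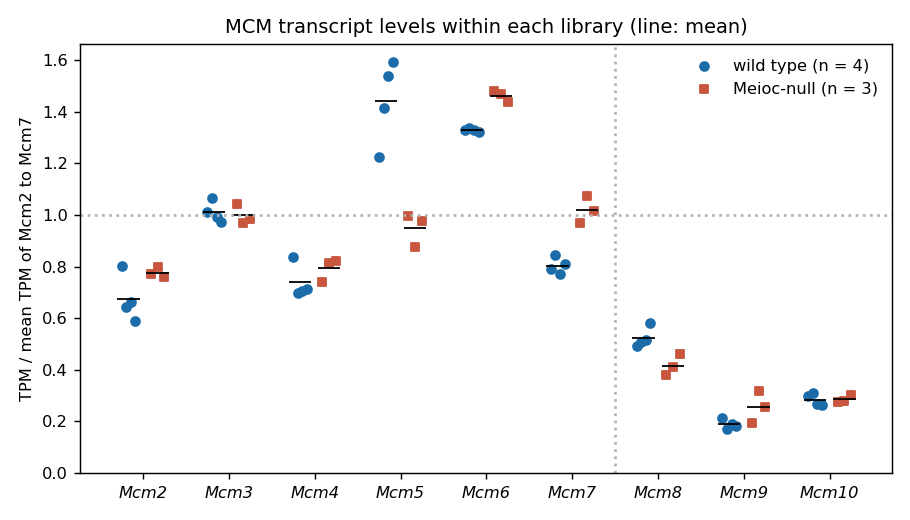
TPM of each MCM gene (x axis) divided by the mean TPM of *Mcm2* to *Mcm7* in the same library (y axis, linear from 0), for each wild-type library (circles) and each *Meioc*-null library (squares), with group means as black lines. *Mcm5* lies at 1.22 to 1.59 in wild type and at 0.874 to 0.996 in the null. *Mcm6* and *Mcm7* lie higher in the null relative to this mean, which includes *Mcm5*.

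kallisto divides reads between the transcripts of a gene by estimation, so transcript shares are estimates. *Mcm2*, *Mcm3* and *Mcm4* had 1 transcript each. Mcm5-205, of 2653 bases, took 95.7% to 97.7% of the *Mcm5* counts in wild type and 93.5% to 96.1% in the null, and Mcm5-203 was listed at 0 in all libraries. The genotype difference of *Mcm5* thus lay in its leading transcript, at 83.0 to 106 TPM in wild type and 55.0 to 69.1 TPM in the null, while Mcm5-201 overlapped at 1.62 to 3.98 and 2.31 to 3.19 TPM. Mcm8-201, of 3179 bases, took 81.1% to 90.3% of the *Mcm8* counts in wild type and 61.0% to 87.1% in the null. Its level was 28.6 to 36.4 TPM in wild type and 17.3 to 24.2 TPM in the null, and Mcm8-202 overlapped at 3.57 to 6.34 and 3.26 to 10.1 TPM. With only the leading transcript of each member in the test, the log2 fold changes of *Mcm5* and *Mcm8* were 0.98 and 0.85, and both were called. For *Mcm7*, the short transcript Mcm7-208, of 1351 bases, took 22.5% to 26.4% of the counts in wild type and 26.9% to 27.9% in the null. Being short, it weighed more in TPM, at 23.7 to 31.1 in wild type and 30.2 to 36.8 in the null. Mcm7-201 lay at 28.7 to 33.0 TPM in wild type and 30.4 to 34.9 TPM in the null. The TPM rank and TPM ratio of *Mcm7* thus rest in part on this estimated split. The 4 transcripts of *Mcm9* also varied between libraries of 1 genotype, with Mcm9-201 at 20.2% to 44.8% of the counts in wild type alone.

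Genes that act on the helicase were compared in the same fit. The licensing list holds the origin recognition complex, CDC6, CDT1 and their regulators. Of its 12 genes, edgeR called 2 higher in wild type and 0 lower (0 lower also at an unadjusted p under 0.05 and by DESeq2), with a median log2 fold change of 0.19. Of all genes tested, edgeR called 7.77% higher and 3.33% lower, and 12.9% lay lower at an unadjusted p under 0.05. DESeq2 called 875 of the 13630 genes lower. *Orc1*, an ATPase subunit of the origin recognition complex, was counted at 41.9, 57.8, 59.9 and 65.6 CPM in wild-type replicates 1 to 4 and at 32.3, 24.9 and 27.8 CPM in null replicates 1 to 3. It had the largest difference of the list, with a log2 fold change of 0.99 (SE 0.15, adjusted p = 0.011 by edgeR). The other called gene, *Orc6*, was at 0.37 (SE 0.09, adjusted p = 0.027 by edgeR).

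More of the genes that turn the loaded ring into a moving helicase were called. Of 13 activation genes, 8 were called higher and 0 lower by edgeR (0 lower also at an unadjusted p under 0.05 and by DESeq2), with a median of 0.49 beside -0.01 for all genes. The edgeR shares over all genes tested were 7.77% higher and 3.33% lower. At an unadjusted p under 0.05, 12.9% lay lower, and DESeq2 called 875 of the 13630 genes lower. *Ticrr*, which brings CDC45 to the ring, was counted at 47.2, 62.6, 76.0 and 67.6 CPM in wild-type replicates 1 to 4 and at 27.7, 31.6 and 25.8 CPM in null replicates 1 to 3. Its log2 fold change of 1.16 (SE 0.15, adjusted p = 0.006 by edgeR) was the largest of the list. The smallest among the called was that of *Cdc7*, the kinase that acts on the ring, at 0.48 (SE 0.13, adjusted p = 0.046 by edgeR), where wild-type replicate 1, at 70.1 CPM, lay below null replicate 1, at 72.2 CPM. Of the partners of the ring in the CMG helicase, *Cdc45* and the GINS subunits *Gins1*, *Gins2* and *Gins3* were called, and the GINS subunit *Gins4*, at 0.17 (SE 0.08, adjusted p = 0.21 by edgeR), was not. Whether the log2 fold changes of ring subunits and partners differ was not tested.

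Of 7 genes of fork protection and DNA polymerase alpha-primase, 6 were called higher and 0 lower by edgeR (0 lower also at an unadjusted p under 0.05 and by DESeq2), with a median of 0.46. For all genes tested, edgeR called 7.77% higher and 3.33% lower. At an unadjusted p under 0.05, 12.9% lay lower, and DESeq2 called 875 of the 13630 genes lower. *Prim1*, the catalytic primase subunit, was counted at 53.5, 102, 104 and 110 CPM in wild-type replicates 1 to 4 and at 50.6, 30.7 and 38.4 CPM in null replicates 1 to 3. The groups were separated only by the narrow gap between replicates 1 of both genotypes, and the log2 fold change was 1.21 (SE 0.25, adjusted p = 0.020 by edgeR). The smallest among the called was *Timeless*, a fork protection gene, at 0.43 (SE 0.09, adjusted p = 0.023 by edgeR).

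The unloading list holds genes that remove the helicase from replicated DNA. Of its 6 genes, 2 were called higher and 0 lower by edgeR (0 lower also at an unadjusted p under 0.05 and by DESeq2), with a median of 0.12. Beside this, edgeR called 7.77% of all genes tested higher and 3.33% lower. At an unadjusted p under 0.05, 12.9% lay lower, and DESeq2 called 875 of the 13630 genes lower. *Lrr1*, the substrate receptor of the ubiquitin ligase that marks the helicase at the end of replication, was counted at 11.3, 21.7, 20.1 and 22.8 CPM in wild-type replicates 1 to 4 and at 10.2, 6.36 and 8.08 CPM in null replicates 1 to 3. As for *Prim1*, wild-type replicate 1 lay next to null replicate 1, and the log2 fold change was 1.20 (SE 0.25, adjusted p = 0.020 by edgeR). *Faf1*, a cofactor of the unfoldase VCP, was at 0.41 (SE 0.08, adjusted p = 0.018 by edgeR). Of the pair *Hrob* (listed as *BC030867*), a partner of MCM8 and MCM9, and *Mcmdc2*, an MCM-related gene of meiotic recombination, neither was called, at 0.18 (SE 0.16, adjusted p = 0.48 by edgeR) and 0.10 (SE 0.23, adjusted p = 0.80 by edgeR).

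Over all 38 licensing, activation, fork and unloading genes, 18 had a call in favour of wild type and the median log2 fold change was 0.32. This count depended on the libraries: it was 20 without wild-type replicate 1 and 19 without null replicate 1, but 6, 6 and 10 without wild-type replicates 2, 3 and 4, and 8 and 2 without null replicates 2 and 3. Among all 13630 genes tested, the number called higher was 1059 (7.77%) with all libraries, 1440 without wild-type replicate 1 and 113 without null replicate 3. On log2(TPM + 1) with limma 9 of the 38 were called higher, and 440 of all genes tested.

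As a contrast, 12 genes of G2 and M phase were split, with 3 called in the direction of wild type and 2 in that of the null, and a median of -0.09. The shares of all genes tested were 7.77% and 3.33% in these directions. *Top2a*, the topoisomerase that separates replicated DNA, was counted at 392, 1029, 1093 and 1126 CPM in wild-type replicates 1 to 4 and at 341, 230 and 281 CPM in null replicates 1 to 3. It had the largest log2 fold change of the list, 1.68 (SE 0.32, adjusted p = 0.017 by edgeR), and its wild-type replicate 1 lay far below the other wild-type libraries. *Aurkb*, a kinase of chromosome segregation, had the lowest, at -0.74 (SE 0.18, adjusted p = 0.030 by edgeR).

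**Figure D4:**
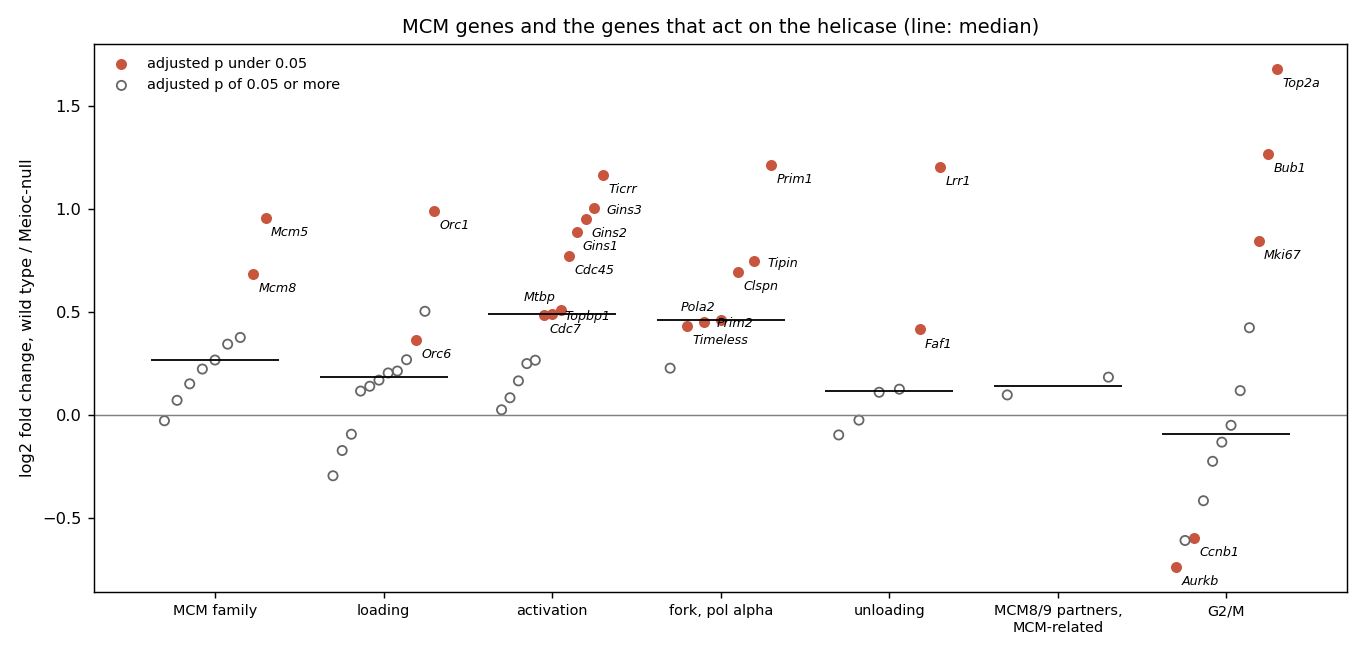
Log2 fold change of wild type over *Meioc*-null (y axis) for each gene of the MCM family and of 6 lists (x axis), ordered by value within a list, with called genes filled and named, other genes open, and the list median as a black line. In the activation list 8 of 13 genes and in the fork list 6 of 7 genes are filled, against 2 of 9 MCM genes. All of these were higher in wild type, as were 7.77% of all genes tested.

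The genes whose profile over the 7 libraries was most like the mean profile of *Mcm2* to *Mcm7* included *Hacd1*, *Rps20*, *Trdmt1* and *Mrps7*, by the root mean square difference of centred log2 CPM. Their differences were 0.029 to 0.042, beside a median of 0.242 over the 10234 genes whose mean reached 10 CPM. The same measure was 0.051 for *Mcm3*, 0.062 for *Mcm6*, 0.085 for *Mcm4*, 0.143 for *Mcm2* and for *Mcm7*, and 0.333 for *Mcm5*, which was thus the subunit farthest from the mean profile that it is part of. *Mcm10* lay at 0.073, nearer than *Mcm8* at 0.201 and *Mcm9* at 0.262. The mean profile was highest in wild-type replicate 2, at 0.32, and lowest in null replicate 2, at -0.30, with wild-type replicate 1 at 0.01 and null replicate 1 at -0.03 beside each other.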

How the data were processed

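RNA from the testes of 7 pups was depleted of ribosomal RNA and sequenced as stranded single-end reads. The authors trimmed reads with cutadapt 1.8 and ran kallisto 0.44.0 on GENCODE Basic vM15 transcripts (mm10). They deposited estimated counts per protein-coding transcript, without normalization, and TPM. Transcripts were matched to GENCODE vM21 on GRCm38 by Ensembl identifier (43020 of 43139; the 119 others held 0.247% to 0.282% of counts) and summed by gene. Counts were rounded and tested with edgeR 4.0.16 (TMM, quasi-likelihood, no covariates) in R 4.3.3 over the 13630 genes that reached 1 TPM in 3 or more of the 7 libraries. The 95% intervals use a t distribution with edgeR's degrees of freedom. DESeq2 1.42.0 and limma 3.58.1 on log2(TPM + 1) and log2(TPM + 0.1) were alternatives, with other scalings and filters, the leading transcript alone, libraries left out and a replicate block. The scripts were checked on simulated data.

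Samples were grouped by the genotype in their labels. The MCM genes, the gene lists and the tests were chosen with earlier results of these data known. Named are the members, *Meioc*, in each list the called genes with the largest and smallest log2 fold change and lists of at most 3 genes in full, and the 5 genes of nearest profile, of which 1 is not reported here. The activation genes *Cdc45* and *Gins1* to *Gins4*, and marker genes, fall outside that rule and were named after their values were seen. A level of 3 counts was 0.151 to 0.236 CPM, a floor that covers counting error only. Every pair of libraries differed by more than counting noise (smallest median ratio of squared difference to counting variance 1.67), so all were kept as separate samples. kallisto can divide reads between genes that share sequence: of the 31-base words in their transcripts, *Mcm5* shared 1.39%, *Mcm8* 0.776% and *Mcm10* 0.386% with other genes, and the other members none.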

Additional observations from a re-analysis of the deposited data

Results flagged for a closer look

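In *Mcm5*, the lowest wild-type library (replicate 1, 169 CPM) stood apart from the other 3, at 242 to 248 CPM, with a gap to the nearest of 0.928 of the range of the group. In *Mcm10*, the highest wild-type library (replicate 2, 58.9 CPM) stood apart from the others, at 44.6 to 46.4 CPM, with a gap of 0.873 of the range. Only the wild-type groups of the 9 members were examined, since groups of 3 are too small, and chance marks about 1 in 20 such groups.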

How the results depend on the processing

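*Mcm3*, *Mcm4*, *Mcm5*, *Mcm8* and *Mcm10* were above 0 under all 17 alternatives. *Mcm5* was called under 15 of them, *Mcm8* under 16, *Mcm3* and *Mcm4* under 3 each and *Mcm10* under none. Members called higher numbered 4 under DESeq2 on the same genes or all genes, and 1 to 4 with a library left out. Listed replication genes called higher numbered 9 with limma on either TPM scale and 2 to 20 with a library left out. All genes called higher numbered 440 and 443 with limma on log2(TPM + 1) and log2(TPM + 0.1), and 113 to 1440 with a library left out. All genes called lower numbered 875 and 764 with DESeq2 on the same and on all genes, 899 without scaling, 2082 and 2063 with limma on the TPM scales, and 18 to 837 with a library left out. Without scaling 814 were called higher, so the split between directions moved with the scaling. The sign turned with limma on log2(TPM + 1) and log2(TPM + 0.1) for *Mcm2* (-0.10 and -0.10), *Mcm6* (-0.0263 and -0.0265) and *Mcm7* (-0.23 and -0.23), and for *Mcm7* without scaling (-0.0082). With a library left out, *Mcm7* ranged from -0.012 to 0.13 and *Mcm9* from -0.11 to 0.10. The cause was not tested. Deviations from the genotype means correlated at 0.006, -0.09 and -0.15 between same-numbered libraries. With so few libraries behind each mean, this cannot show whether the replicate numbers pair the libraries. With the replicate block, in which wild-type replicate 4 has no partner, 0 members were called, 1 listed gene, and 94 genes higher and 15 lower, with *Mcm5* at 0.91 and *Mcm8* at 0.63 (edgeR adjusted p = 0.070 and 0.073).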

Other observations

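Genes that share a locus with a member were looked at by position alone. *Trmt6*, a tRNA methyltransferase subunit that starts 86 bases from *Mcm8* on the opposite strand, had a log2 fold change of -0.11 (SE 0.16, adjusted p = 0.68 by edgeR), beside the 0.69 of *Mcm8*. It was counted at 108, 79.7, 67.1 and 64.7 CPM in wild-type replicates 1 to 4 and at 83.3, 81.4 and 93.2 CPM in null replicates 1 to 3, so the genotypes overlapped. *Prkdc*, the DNA-dependent protein kinase, starts 466 bases from *Mcm4* on the opposite strand and was at 0.21 (SE 0.09, adjusted p = 0.13 by edgeR), beside the 0.27 of *Mcm4*. *Cops6* and *Ap4m1*, which overlap *Mcm7*, were at 0.22 (SE 0.12) and -0.08 (SE 0.09), and the histone chaperone gene *Asf1a* within *Mcm9* was at 0.00 (SE 0.09), none of them called.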
